A study of Mus musculus with 18 samples.

Results

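The genes of glycolysis, lactate handling and the citric acid cycle were followed in the hippocampus of adolescent mice. The set of 37 genes was chosen by name: the enzymes from hexokinase to pyruvate kinase, the lactate dehydrogenase subunits, transporters of glucose, lactate and pyruvate, the pyruvate dehydrogenase complex with its kinases, and enzymes of the cycle. All 37 symbols matched a gene identifier in the deposited count table and all 37 had enough counts to be tested, among 16738 genes tested of 57180 listed. The animals were wild-type male C57BL/6J mice with 6 mice in each of 3 groups, and each library held the RNA of 1 mouse. The control group was untreated. Another group underwent CSDS, chronic social defeat stress, in which a mouse meets an aggressive resident again and again. The remaining group went through CSDS and aerobic training as well, which began in the week before the defeat and went on alongside it. These mice are called exercised mice here. Tissue was taken after behavioural tests, all libraries carry the same batch label, and no group of exercised mice without CSDS was analysed here. The sources used here do not state age in weeks, the form of the training or the behaviour of single mice.

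Glycolysis breaks glucose down to pyruvate in the cytosol. Pyruvate is then either reduced to lactate by lactate dehydrogenase or carried into mitochondria, where the pyruvate dehydrogenase complex makes the acetyl-CoA that feeds the citric acid cycle. In brain, lactate made largely by astrocytes can be taken up by neurons as fuel, and muscle releases lactate into the blood during exercise. Messenger RNA levels do not measure the flux through these steps, which also depends on enzyme amounts, phosphorylation and metabolites.

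Together the 37 genes took 1.29% to 1.57% of all counts in a library. Levels between genes were compared as library-scaled counts (CPM) per kilobase of transcript, as means over the 18 libraries. Gapdh, glyceraldehyde-3-phosphate dehydrogenase, stood highest at 1302 ± 110 CPM per kilobase (SD, n = 18). Aldoa, the aldolase of this pathway, followed at 1152 ± 130, and the ranges of these genes overlapped. Pkm, pyruvate kinase, came next at 702 ± 62.5, and its highest library (817) was below the lowest Aldoa library (918). Tpi1, Eno1 and Eno2 came after Pkm, so the first 6 places all went to enzymes between aldolase and pyruvate kinase.

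The entry of pyruvate into mitochondria and the cycle itself lay lower on this per-length scale. Mdh1, the cytosolic malate dehydrogenase of the malate-aspartate shuttle, reached 293 ± 42.4 CPM per kilobase, and Mdh2, its mitochondrial counterpart, 196 ± 15.2. Cs, citrate synthase, stood at 98.3 ± 4.50, and the pyruvate dehydrogenase subunits Pdha1 and Pdhb at 78.5 ± 6.14 and 80.7 ± 11.3. These subunits overlapped in range with Mpc1, a subunit of the mitochondrial pyruvate carrier, at 82.8 ± 22.3. Among the pyruvate dehydrogenase kinases, which switch the complex off, Pdk2 was highest at 53.5 ± 6.40. Pdk3, Pdk1 and Pdk4 followed at 12.1 ± 1.29, 9.45 ± 1.20 and 3.09 ± 0.557. The ranges of Pdk2 and Pdk3 did not overlap, those of Pdk3 and Pdk1 did, and Pdk4 lay below both. The lactate transporter Slc16a3 (MCT4), which in brain is the form of astrocytes, was the lowest of the set at 1.19 ± 0.347, and Slc16a7 (MCT2), the neuronal form, stood at 8.75 ± 1.97.

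**Figure D1:**
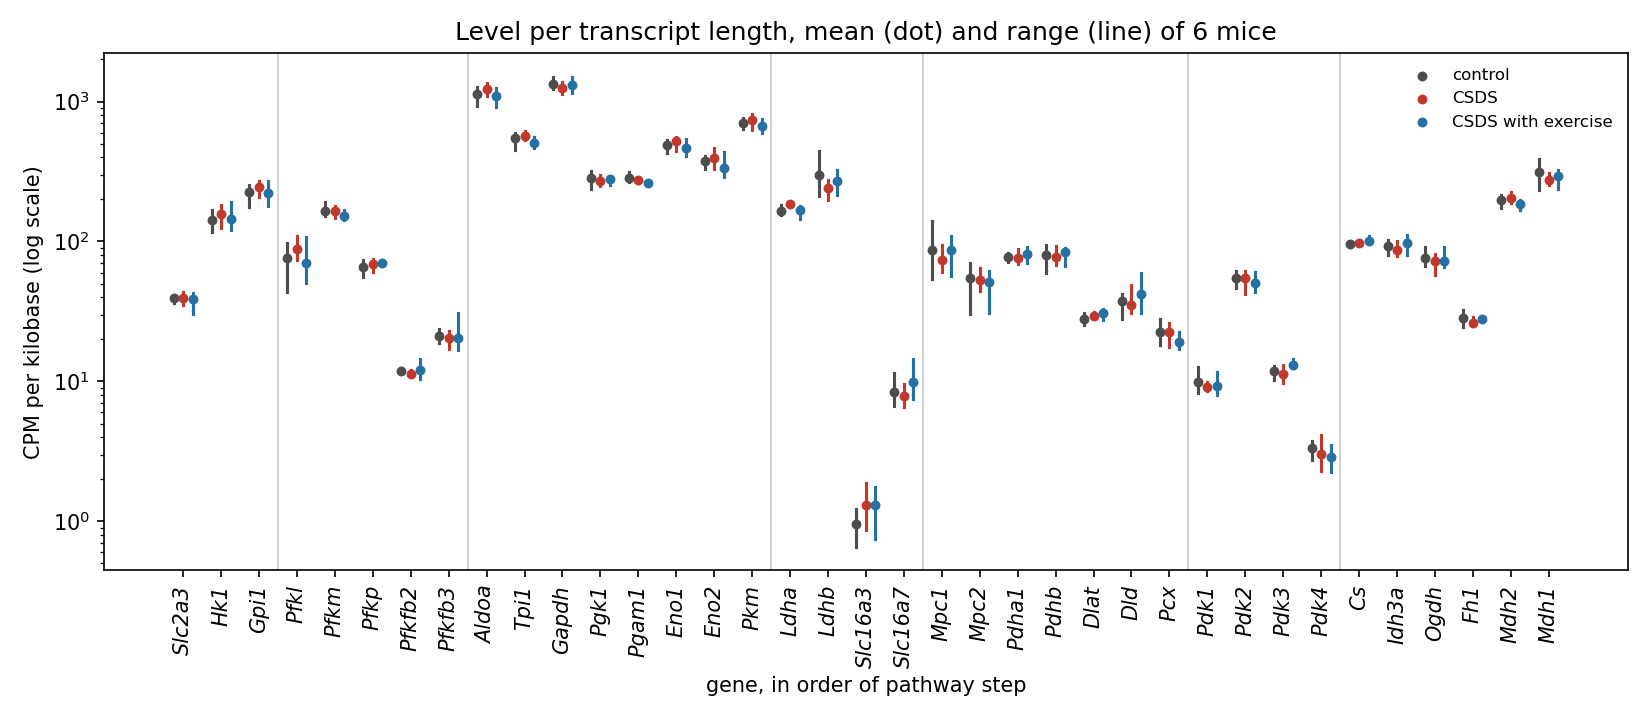
Level of each gene per transcript length (CPM per kilobase, logarithmic axis), with genes in order of pathway step and grey lines between steps. Dots are group means and lines run from the lowest to the highest of 6 mice; the 3 groups of every gene overlap, and the genes differ far more from each other (1302 for Gapdh, 1.19 for Slc16a3) than the groups do.

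Counts of Gapdh, Pgk1, Pgam1, Ldha, Eno1 and Aldoa are uncertain to some degree, because the mouse genome holds processed copies of these genes whose reads the counting may have shared. Aldoa appears under 2 identifiers in the table, and the identifier with 26197 to 44124 counts per library was used; the other had 0 to 18.

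Total estimated counts were 18911080 to 24136591 per library. In bulk tissue a group can differ because it holds fewer cells of a type or because its cells hold less of an RNA, and these cannot be told apart. Control replicate 2 stood apart from the other libraries. Its dentate granule cell markers averaged 2.67 log2 CPM per gene, against up to 5.76 elsewhere, and summed to 312 CPM, against 494 CPM or more elsewhere. Of these 10 markers Dsp was at 0 and C1ql2 at 0.408 CPM in that library. Its pyramidal cell markers summed to 220 CPM, against 534 CPM or more elsewhere, and its neocortical markers to 858 CPM, against at most 409 CPM elsewhere. Thalamic neuron markers summed to 325 to 371 CPM in the CSDS libraries, while they reached 1044 CPM among controls and 1414 CPM among exercised mice. The libraries high in thalamic or neocortical markers were control replicates 1, 2 and 3 and exercise replicates 3 and 6, and values without these 5 are given beside results in which they stood apart. Control replicate 2 was in this set for its neocortical markers, with thalamic markers at 398 CPM. Of the 10 thalamic markers 1, Gbx2, was at 0 in some library, and no neocortical, pyramidal or choroid plexus marker was. Within groups no 2 libraries agreed within sampling noise, so all 18 were counted as separate samples.

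The first comparison asked what social defeat alone does to these genes. None of the 37 passed edgeR's quasi-likelihood test at an adjusted p under 0.05, and none of the 16738 genes did (0%). A GC correction was also run, which removes each library's trend on transcript GC content in level relative to the gene's mean over libraries. At an unadjusted p under 0.05, 2 of the 37 were found, against 3.51% of all genes tested. With the GC correction, 2 of the 37 and 4.20% of all genes were found. Both times those were Ldha, higher in CSDS, and Ldhb, lower in CSDS, the pair of genes that code for the M and H subunits of lactate dehydrogenase. For none of the 37 did the 6 CSDS mice lie wholly apart from the 6 controls, which was so for 0.239% of all genes. The median log2 fold change was -0.02 over the 37 genes, 16 of them positive and 21 negative, and 0.00 over all genes. With the 5 libraries left out the split was 24 positive and 13 negative, with a median of 0.02. DESeq2 called none of the 37 either and found 2 at an unadjusted p under 0.05. Its share over all genes was 2.64% of 31251, since it was run without the filter on low counts. The DESeq2 shares are therefore not on the same genes as those of edgeR. With single libraries left out edgeR found 0 to 3 of the 37 at an unadjusted p under 0.05. It found 0 without control replicate 1 (3.22% of all genes), CSDS replicate 1 (2.45%) or CSDS replicate 2 (2.40%), and 3 without exercise replicate 1 (3.19%).

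Ldha (ENSMUSG00000063229, GRCm38 chr7:46841475-46855627, plus strand) codes for the subunit that favours making lactate from pyruvate. Its level was 285, 291 and 299 CPM in the lowest, median and highest CSDS mouse, and 245, 261 and 290 CPM in the controls. The CSDS mice were thus tightly grouped, and only control replicate 5 reached into their range. The mean was 292 ± 5.09 CPM against 264 ± 15.7 CPM (SD, n = 6 each), a log2 fold change of 0.15 ± 0.06 (SE) with an adjusted p of 0.993 by edgeR. With the 5 libraries left out it was 0.12, and with a correction for GC content 0.14. Exercised mice spanned 231 to 286 CPM with a median of 274 CPM, and only exercise replicate 5, at 286 CPM, reached the CSDS range. Against CSDS their log2 fold change was -0.12 ± 0.06 (adjusted p = 0.366, edgeR).

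Ldhb (ENSMUSG00000030246, GRCm38 chr6:142490249-142507957, minus strand) codes for the subunit that favours lactate use. Control mice spread from 276 CPM through a median of 362 CPM to 581 CPM, CSDS mice from 260 through 311 to 358 CPM. The higher control mean came from control replicates 1, 2 and 3 at 391, 581 and 457 CPM, and the other 3 controls (276 to 332 CPM) lay within the CSDS range. The log2 fold change was -0.33 ± 0.15 (adjusted p = 0.993, edgeR). Without control replicate 2 it was -0.18, and with all 5 libraries high in thalamic or neocortical markers left out it was 0.02. Exercised mice spanned 281 to 420 CPM, and their highest level was in replicate 6, which is also high in thalamic markers. Of the 9 thalamic markers tested, 9 were lower in CSDS than in control mice, with a median log2 fold change of -0.90. So were 8 of 10 neocortical markers (median -0.65). Among controls the thalamic sum was highest in replicates 3 and 1 (1044 and 632 CPM), and the neocortical sum in replicate 2 (858 CPM). The part of these markers in the level of Ldhb was not tested.

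The ratio of Ldha to Ldhb counts within a library followed from these levels. It ran from 0.467 to 0.924 in controls (median 0.725), from 0.797 to 1.11 in CSDS mice (median 0.945) and from 0.549 to 0.997 in exercised mice (median 0.799). The groups overlapped in this ratio too. Control replicates 1, 2 and 3 gave the lowest control values, at 0.667, 0.467 and 0.536. With the 5 libraries left out the median was 0.920 in the 3 remaining controls, 0.945 in the 6 CSDS mice and 0.835 in the 4 remaining exercised mice.

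The sequence upstream of these subunit genes is shown because hypoxia-inducible factors, known regulators of Ldha and Pgk1, bind sites with the core ACGTG. The 250 bases before the annotated start come from RefSeq (GRCm38.p6) and read 5′ to 3′ on the gene's strand, with ACGTG on either strand in capitals (ACGTG or CACGT as printed). Pgk1, phosphoglycerate kinase, serves as the other member with known sites. The Ldha stretch is at chr7:46845554-46845803 on the plus strand, at the first of 2 starts in the table and inside the annotated gene. The Ldhb stretch is at chr6:142507958-142508207 on the minus strand and the Pgk1 stretch at chrX:106186850-106187099 on the plus strand.
Ldha: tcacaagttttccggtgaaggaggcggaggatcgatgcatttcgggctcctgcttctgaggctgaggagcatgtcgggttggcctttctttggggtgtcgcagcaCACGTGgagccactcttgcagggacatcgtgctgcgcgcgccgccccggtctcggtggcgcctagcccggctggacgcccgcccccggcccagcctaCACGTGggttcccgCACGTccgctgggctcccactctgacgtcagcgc
Ldhb: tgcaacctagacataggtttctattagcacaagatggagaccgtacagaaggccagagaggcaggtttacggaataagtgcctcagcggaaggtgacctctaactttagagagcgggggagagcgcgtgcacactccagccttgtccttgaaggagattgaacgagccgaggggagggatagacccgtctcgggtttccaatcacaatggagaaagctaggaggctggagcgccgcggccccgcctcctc
Pgk1: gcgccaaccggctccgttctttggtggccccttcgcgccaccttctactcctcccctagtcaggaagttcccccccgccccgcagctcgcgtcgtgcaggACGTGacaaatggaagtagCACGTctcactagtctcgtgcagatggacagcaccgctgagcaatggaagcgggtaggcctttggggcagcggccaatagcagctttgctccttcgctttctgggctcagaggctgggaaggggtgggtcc
The Ldha stretch holds the letters at 3 places, 2 of them as the palindrome CACGTG, where the hits on both strands overlap. Pgk1 holds them at 2 places and Ldhb at none. Of 32851 upstream stretches of this length in the table, 16.6% held ACGTG on either strand. Of the 56 stretches of the 34 members with an entry, 42.9% (24) did. Counted by gene, 15 of the 34 members held it in any stretch. The Ldha, Pgk1 and Ldhb stretches were 67.2%, 62.8% and 56.4% GC. Whether other stretches of like GC content hold ACGTG as often was not tested, nor was binding. Slc2a3, Slc16a7 and Idh3a were not in the table. The level of Pgk1 itself was 495 ± 31.7 CPM in CSDS mice and 520 ± 51.0 CPM in controls, and the groups overlapped.

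**Figure D2:**
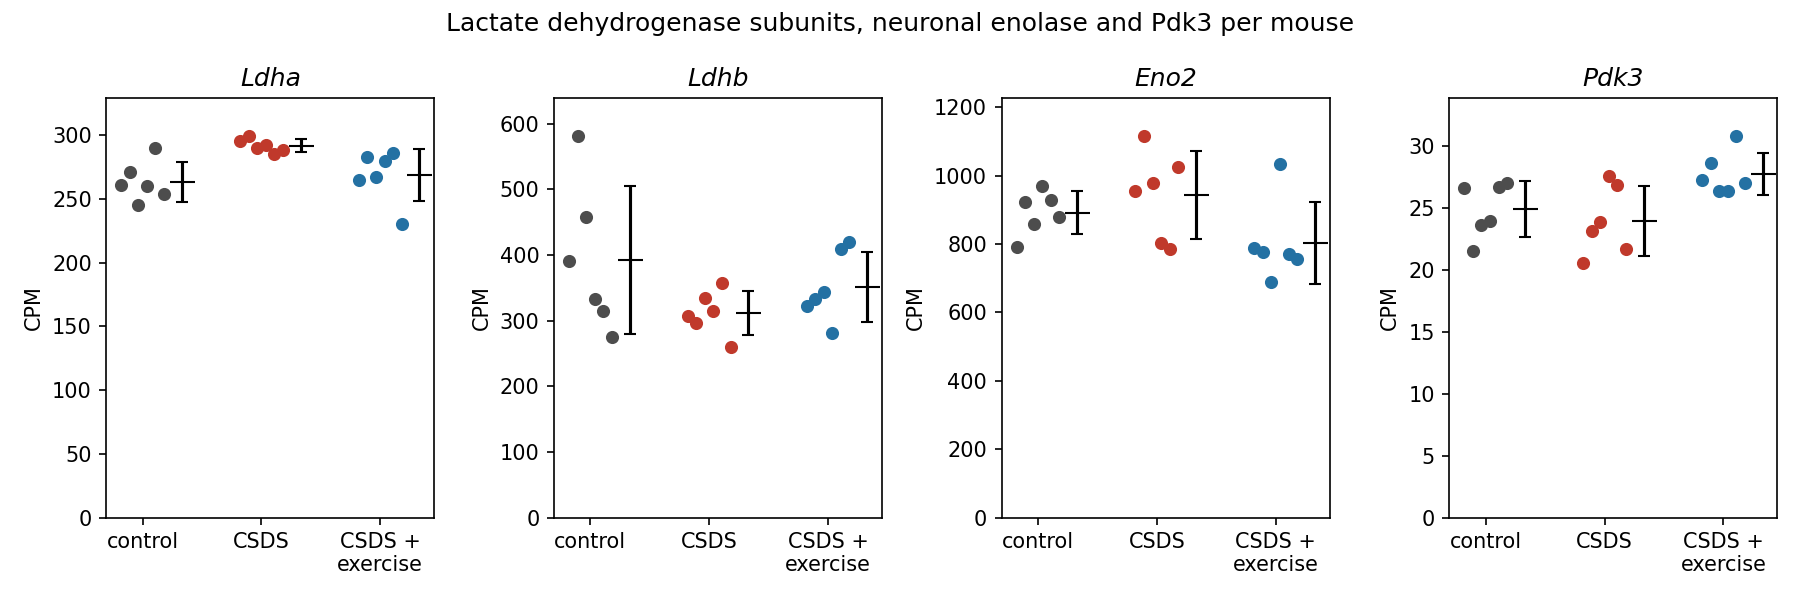
Level in CPM of Ldha, Ldhb, Eno2 and Pdk3 in each mouse (dots, linear axes from 0), with the group mean and SD beside them (black). CSDS mice cluster at 285 to 299 CPM for Ldha, 3 controls stand high for Ldhb, and 1 exercised mouse (1035 CPM) stands high for Eno2.

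The remaining genes of the lactate step were the transporters. Slc16a3 was low everywhere, with 1.57, 2.40 and 2.91 CPM as lowest, median and highest control, 2.07, 3.0 and 4.45 CPM in CSDS mice and 1.79, 3.13 and 4.19 CPM in exercised mice. Its log2 fold change in CSDS against control was 0.44 ± 0.23 (adjusted p = 0.993, edgeR), the largest of the 37 in size, and the groups overlapped. With the 5 libraries left out it was 0.62, and it then rests on 3 controls. Slc16a7 measured 21.0 ± 4.55 CPM in controls and 19.7 ± 2.90 CPM in CSDS mice.

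The other members with the smallest p-values in this comparison acted in the cycle, the malate shuttle, pyruvate entry and glycolysis. Mdh1, the cytosolic malate dehydrogenase, ran from 497 to 828 CPM in controls (median 665) and from 534 to 659 CPM in CSDS mice (median 559), with control replicates 1, 2 and 3 again at the top (701, 828 and 774 CPM). This gave a log2 fold change of -0.18 ± 0.12, and 0.07 with the 5 libraries left out. Fh1, fumarase, ran from 64.7 to 85.2 CPM in controls (median 74.7) and from 65.4 to 76.1 CPM in CSDS mice (median 68.0), and its log2 fold change went from -0.11 to 0.04 in the same way. Controls thus spread wider than CSDS mice for both Mdh1 and Fh1. Hk1, the hexokinase that traps glucose in brain cells, ran from 437 to 631 CPM in controls (median 519) and from 466 to 680 CPM in CSDS mice (median 625). Its log2 fold change went from 0.16 to -0.01 without the 5 libraries. Ldha, Slc16a3 and Dlat kept their direction there, and Gapdh went from -0.11 to 0.00.

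Gapdh, widely used as a reference gene, ranged from 1568 to 1922 CPM in controls (median 1685), from 1435 to 1757 CPM in CSDS mice (median 1582) and from 1467 to 1895 CPM in exercised mice (median 1691). The groups overlapped throughout. Pkm ranged from 1413 to 1702, from 1406 to 1827 and from 1337 to 1684 CPM in the same order. Cs varied least within groups of all 37 genes, with a coefficient of variation of 4.18%. It ran from 268 to 294 CPM in controls (median 286), from 272 to 300 CPM in CSDS mice (median 279) and from 282 to 318 CPM in exercised mice (median 293).

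The second comparison set defeated mice that trained against defeated mice that did not. Again none of the 37 genes passed at an adjusted p under 0.05, nor did any other gene (0%). At an unadjusted p under 0.05, 4 of the 37 were found, against 15.6% of all genes, and with the GC correction 1 (Gapdh) and 5.59%. Gapdh was higher in exercised mice, with a log2 fold change of 0.09 as fitted and 0.21 with the GC correction. None of the 37 separated the groups without overlap, against 0.890% of all genes. The median log2 fold change was 0.00 with 18 genes positive and 19 negative, beside 0.02 over all genes, of which 53.5% were positive. DESeq2 found 6 of the 37 at an unadjusted p under 0.05, against 9.49% of its 31251 genes, which include those of low count. The edgeR count of 4 moved from 0 without CSDS replicate 1 (10.9% of all genes) to 12 without exercise replicate 4 (26.3% of all genes).

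Pdk3 (ENSMUSG00000035232, GRCm38 chrX:93764607-93832201, minus strand), the pyruvate dehydrogenase kinase that is least held back by pyruvate, had the smallest p. Exercised mice lay between 26.4 and 30.8 CPM with a median of 27.1 CPM, CSDS mice between 20.5 and 27.6 CPM with a median of 23.5 CPM, and controls between 21.5 and 27.0 CPM with a median of 25.3 CPM. CSDS replicates 4 and 5, at 27.6 and 26.9 CPM, overlapped the exercised mice, and the other 4 CSDS mice were lower. The log2 fold change was 0.21 ± 0.09 (adjusted p = 0.268, edgeR). It was 0.24 with the 5 libraries left out and 0.13 with the GC correction.

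The other kinases gave smaller differences. Pdk1 ran from 42.7 to 65.3 CPM in controls (median 48.3), from 44.4 to 51.3 CPM in CSDS mice (median 46.7) and from 41.3 to 60.6 CPM in exercised mice (median 46.8). Pdk2 ran from 104 to 138 CPM (median 122), from 94.4 to 139 CPM (median 127) and from 97.0 to 137 CPM (median 110) in that order. Pdk4, a target of fasting and glucocorticoid signals in many tissues, ran from 9.52 to 13.0 CPM (median 12.0), from 7.96 to 14.5 CPM (median 9.79) and from 7.83 to 12.3 CPM (median 10.1). For each of these 3 kinases all groups overlapped. Pdk4 was lower in exercised mice than in controls by a log2 fold change of -0.22 ± 0.15 (adjusted p = 0.581, edgeR), and -0.34 with the GC correction (adjusted p = 0.608).

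Eno2 (ENSMUSG00000004267, GRCm38 chr6:124760053-124769673, minus strand), the neuronal enolase and itself a neuronal marker, had the next smallest p. Exercised mice lay at 688, 774 and 1035 CPM as lowest, median and highest, and CSDS mice at 785, 966 and 1116 CPM. Of the exercised mice 4 were below every CSDS mouse, replicate 1 at 790 CPM was just inside their range, and replicate 4 at 1035 CPM was far inside. The log2 fold change was -0.23 ± 0.10 (adjusted p = 0.297, edgeR). With the 5 libraries left out it was -0.16. Without exercise replicate 4 it was -0.34 with an adjusted p of 0.0489, which made Eno2 the only one of the 37 called in that setting (3.71% of all genes were). With the GC correction and all libraries it was -0.12 (adjusted p = 0.926), and with both changes -0.17 (adjusted p = 0.454).

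Eno1, the widely expressed enolase, ran from 805 to 1060 CPM in exercised mice (median 892) and from 876 to 1105 CPM in CSDS mice (median 1040), a log2 fold change of -0.16 ± 0.08. The ratio of Eno2 to Eno1 counts was 0.876 ± 0.0657 in exercised, 0.923 ± 0.0667 in CSDS and 0.937 ± 0.0905 in control mice (SD, n = 6 each), and the groups overlapped. Tpi1, triosephosphate isomerase, lay at 556, 601 and 674 CPM in exercised mice and at 640, 674 and 743 CPM in CSDS mice, with a log2 fold change of -0.17 ± 0.08 (adjusted p = 0.305, edgeR). Exercise replicate 5, at 674 CPM, was the one exercised mouse inside the CSDS range. Mdh2 lay at 246, 270 and 289 CPM against 275, 299 and 326 CPM, a log2 fold change of -0.15 ± 0.07 (adjusted p = 0.302, edgeR). Only exercise replicates 4 and 5, both at 289 CPM, reached the CSDS mice.

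The next genes in order of p were Pcx, Slc16a7 and Idh3a. Pcx, pyruvate carboxylase, which refills the cycle and is known mainly from astrocytes in brain, ran from 69.5 to 91.9 CPM in exercised mice (median 71.6) and from 71.4 to 107 CPM in CSDS mice (median 97.3). Its log2 fold change was -0.25 ± 0.12, and -0.02 with the GC correction. Slc16a7 ran from 18.6 to 35.7 CPM (median 23.3) against 16.2 to 23.8 CPM (median 19.5), and its highest mouse was exercise replicate 3, one of those high in thalamic markers. Its log2 fold change was 0.32 ± 0.16, 0.16 with the 5 libraries left out and 0.11 with the GC correction. Idh3a, the catalytic subunit of the NAD-dependent isocitrate dehydrogenase, ran from 198 to 275 CPM (median 250) against 197 to 250 CPM (median 204), a log2 fold change of 0.18 ± 0.09 and 0.05 with the GC correction. For all 3 genes the groups overlapped.

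All 9 thalamic markers tested had a higher group level in exercised mice, 5 of them at an unadjusted p under 0.05 (edgeR). Their median log2 fold change was 1.14. Exercise replicates 3 and 6 held the high sums, at 692 and 1414 CPM. The other exercised mice summed to 292 to 369 CPM, against 325 to 371 CPM in CSDS mice. Pan-neuronal markers, among which Eno2 itself was counted, had a median log2 fold change of 0.02, with 7 of 12 positive, and summed to 8732 to 9911 CPM against 8560 to 9799 CPM. Astrocyte markers had a median of 0.01 with 7 of 12 positive, and summed to 4736 to 5470 CPM against 4258 to 5052 CPM. Pyramidal cell markers were negative for 7 of 9 (median -0.28) and summed to 534 to 953 CPM against 703 to 1093 CPM. Choroid plexus markers were negative for 10 of 10 (median -0.36) and summed to 180 to 8498 CPM against 205 to 10945 CPM. The part of these cell types in the members' values was not tested.

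A limma voom fit with sample quality weights gave a different count in this comparison. It called 17 of the 37 members, 6 higher and 11 lower in exercised mice, and 33.3% of all genes. The higher members were Slc16a7, Dld, Pdhb, Mpc1, Idh3a and Pdk3, of which Slc16a7 is a transporter of the cell membrane and the others act in mitochondria. The lower members were Eno2, Eno1, Tpi1, Aldoa, Pkm, Gpi1, Pfkl and Pfkm of glycolysis with Mdh2, Pcx and Pdk2. Among exercised mice the weights ran from 0.311 for replicate 4, the mouse that stood apart for Eno2, to 2.70 for replicate 1. Without weights voom called 0 of the 37 (0.00597% of all genes), and with weights and the GC correction together it again called 0 (1.11% of all genes). DESeq2 also called 0 of the 37 (0.499% of its 31251 genes).

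The split of the members in this comparison ran along the GC content of their transcripts. GC content ranged from 40.6% for Dld to 58.7% for Slc16a3. Of the 16 members at 53% or more, 14 had a negative log2 fold change in exercised against CSDS mice, with a median of -0.13. Of the 13 members under 48%, 12 had a positive one, with a median of 0.11. Over the 37 genes, Pearson's r between GC content and log2 fold change was -0.79 and Spearman's rho -0.77, given as a description since genes of 1 library are not independent. With each library's own GC trend removed, r was 0.15, the GC-rich members split 8 to 8 with a median of -0.01, and the GC-poor members split 7 to 6 with a median of 0.00. The correction is built to remove a relation to GC content, so its weakening does not test what lies behind the split. In CSDS against control r was 0.58 as fitted and 0.33 with the GC correction. There 12 of the 16 GC-rich members were positive as fitted and 9 with the correction. Of the 13 GC-poor members 12 were negative as fitted and 11 with the correction. In exercised against control mice r was -0.31 as fitted and 0.38 with the correction. The limits of 48% and 53% GC were set after the values were seen.

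**Figure D3:**
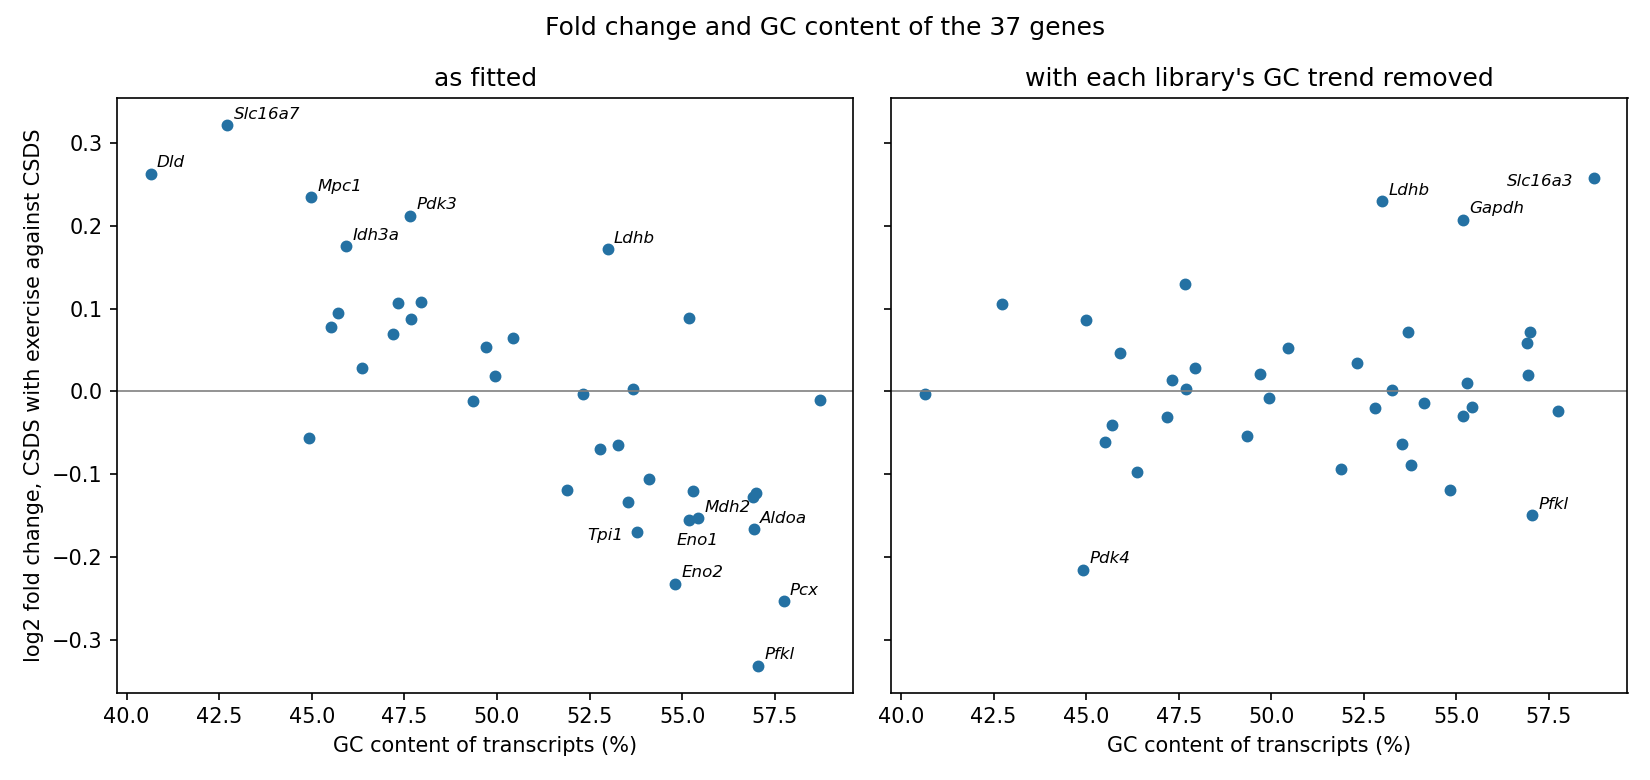
Log2 fold change of each of the 37 genes in CSDS with exercise against CSDS, over the GC content of its transcripts (%), as fitted (left) and with each library's GC trend removed (right). On the left GC-poor genes such as Dld and Slc16a7 lie above 0 and GC-rich genes such as Pfkl and Pcx below it (r = -0.79). On the right r is 0.15, after a correction built to remove such a relation.

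Single libraries carried this pattern as well as groups did. For each library, a slope on GC content was fitted to the genes' log2 CPM minus each gene's mean over the 18 libraries. Its sign is thus relative to the average library. Per 10 GC points it ran from -0.09 to 0.30 in controls, -0.16 to 0.28 in CSDS mice and -0.45 to 0.20 in exercised mice. Over the 18 libraries, 25 of the 37 members followed this slope at an adjusted p under 0.05 (permutation test, 100000 permutations, two-sided, Benjamini-Hochberg over 16738 genes), as did 43.3% of all genes. Of those 25, Pearson's r was positive for 13 and negative for 12, and 22 had the same sign within each of the 3 groups. The slope was computed from these same libraries, so it is not an independent measure. The share of counts on mitochondrially encoded genes ran from 1.71% to 5.10% over the libraries, with its lowest value in a library of positive slope and its highest in that of the lowest slope. It was 1.71% in exercise replicate 4 (slope 0.20) and 1.79% in control replicate 4 (slope 0.30). It was 4.44% in control replicate 2 (slope -0.09), 4.23% in CSDS replicate 4 (slope -0.16) and 5.10% in exercise replicate 3 (slope -0.45). The order was not strict. For example, exercise replicate 2 had a share of 3.23% at slope -0.20, and control replicate 1 had 3.61% at slope -0.08. The part of this share in the slope was not tested.

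Eno2 was higher in libraries of higher slope (r = 0.91, rho = 0.90, permutation p = 1e-05 for both, the smallest these permutations can give, adjusted p = 0.000127 for r), and r was 0.90 without the 2 libraries farthest from the median slope. Within control, CSDS and exercised mice its r was 0.55, 0.92 and 0.97. Dld, the lipoamide dehydrogenase subunit shared by the pyruvate and 2-oxoglutarate dehydrogenase complexes, went the other way (r = -0.91, rho = -0.85, permutation p = 1e-05 for r, adjusted p = 0.000127). Its r without the 2 farthest libraries was -0.84, and within the groups -0.91, -0.93 and -0.91. The other genes with a positive r that passed were Hk1, Gpi1, Pfkl, Pfkm, Pfkfb3, Aldoa, Eno1, Pkm, Pcx, Pdk2, Ogdh and Mdh2. The other genes with a negative r that passed were Pgk1, Slc16a7, Mpc1, Mpc2, Pdha1, Pdhb, Dlat, Pdk3, Idh3a, Fh1 and Mdh1. By rho in place of r, Pgk1 and Mpc2 did not pass (adjusted p = 0.0599 and 0.0531, permutation test). Pfkm, Mdh2 and Pdk3 were the 3 whose sign was not the same in every group. Mpc2, with an r of -0.54, did not follow the order by GC content, since its transcripts are 53.3% GC.

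The other 12 members, Gapdh, Pgam1, Tpi1, Ldha, Ldhb, Cs, Pfkp, Pfkfb2, Slc2a3, Pdk1, Pdk4 and Slc16a3, did not pass the test against the slope. Ldha had an r of 0.31 (rho = 0.28, permutation p = 0.215 for r, adjusted p = 0.318), and its r was -0.29 in controls, 0.46 in CSDS mice and 0.34 in exercised mice. Ldhb had an r of -0.39 (rho = -0.48, permutation p = 0.108 for r, adjusted p = 0.183). Slc2a3 (GLUT3), the main glucose transporter of neurons, measured 157 ± 8.66 CPM in controls, 156 ± 12.8 CPM in CSDS mice and 154 ± 17.7 CPM in exercised mice.

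**Figure D4:**
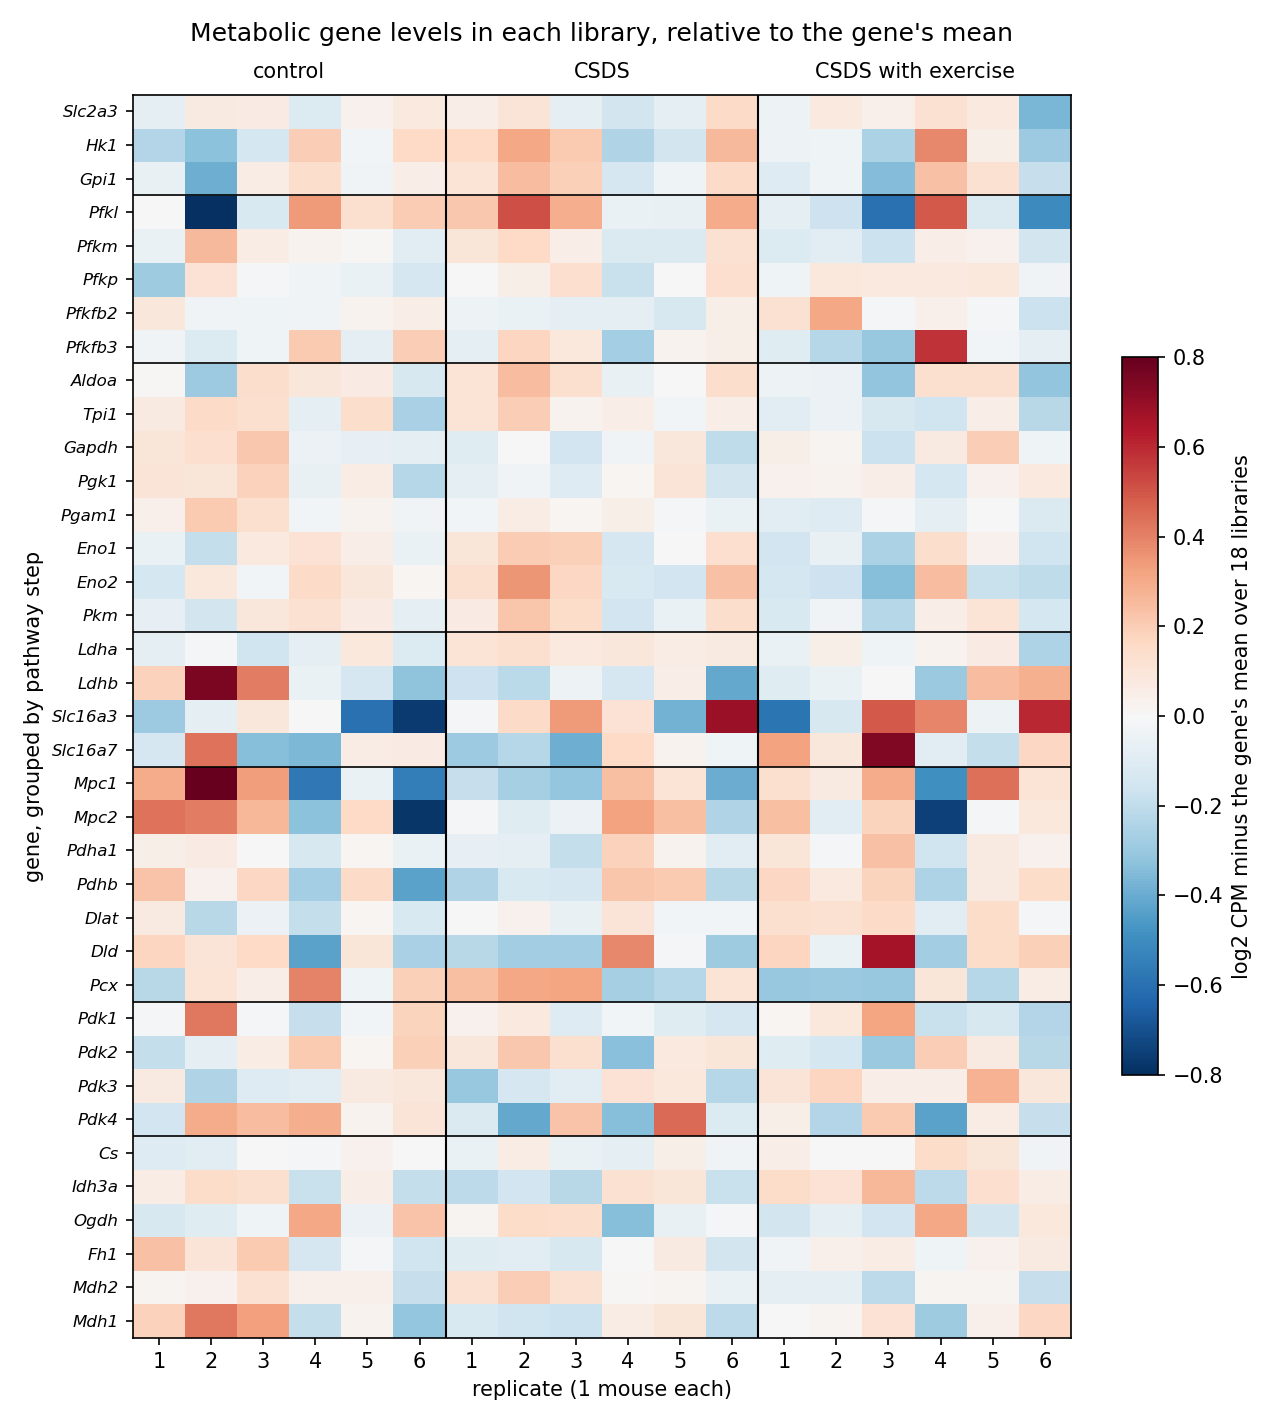
Level of each gene in each of the 18 libraries as log2 CPM minus the gene's mean over all libraries (red above, blue below, colours end at 0.8), genes grouped by pathway step and mice by group. Columns such as exercise replicate 4 and CSDS replicate 2 are red for Hk1, Pfkl, Eno1 and Eno2 and blue for Mpc1, Pdhb and Dld, while exercise replicate 3 shows the reverse.

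The spread between mice of 1 group differed widely among the 37 genes. The coefficient of variation within groups ran from 4.18% for Cs to 27.5% for Mpc1, with a median of 10.7%, and 17 genes were under 10%. Pgam1 (4.64%), Ldha (5.54%), Dlat (6.43%) and Mdh2 (6.70%) were the steadiest after Cs. Mpc1 ranged from 49.6 to 128 CPM among controls alone, and Pfkl, the liver-type phosphofructokinase, from 164 to 361 CPM. The highest Mpc1 and the lowest Pfkl level were in control replicate 2, the library low in dentate granule cell markers.

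The third comparison set the exercised, defeated mice against untreated controls. None of the 37 passed, and 3 of all genes did (0.0179%). At an unadjusted p under 0.05, 1 of the 37 was found, against 11.2% of all genes, and with the GC correction 2 (Slc16a3 and Pdk4) and 7.23%. No member separated the groups, against 0.562% of all genes. The median log2 fold change was -0.02, with 13 members positive and 24 negative, beside 0.01 over all genes. With the 5 libraries left out the split was 23 positive and 14 negative, with a median of 0.06. DESeq2 called none of the 37 and found 3 at an unadjusted p under 0.05, against 7.24% of its 31251 genes. The edgeR count of 1 moved from 0 without exercise replicate 2 (8.73% of all genes) to 5 without exercise replicate 4 (20.9% of all genes). All 8 genes from aldolase to pyruvate kinase were negative as fitted, while 4 of the 8 were negative with the GC correction.

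Dlat (ENSMUSG00000000168, GRCm38 chr9:50634633-50659780, minus strand), the acetyltransferase core of the pyruvate dehydrogenase complex, was the member found. Exercised mice lay at 112, 129 and 132 CPM as lowest, median and highest, and controls at 102, 112 and 125 CPM. Exercise replicates 4 and 6 fell inside the control range, and the other 4 exercised mice were above every control. The log2 fold change was 0.15 ± 0.07 (adjusted p = 0.404, edgeR), and 0.09 with the GC correction. CSDS mice were in between, at 114 to 127 CPM.

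Pgam1, phosphoglycerate mutase, ran from 448 to 484 CPM in exercised mice (median 458) and from 475 to 559 CPM in controls (median 496), a log2 fold change of -0.12 ± 0.06 (adjusted p = 0.448, edgeR). Control replicates 2 and 3, at 559 and 528 CPM, gave the highest values, and with the 5 libraries left out the log2 fold change was -0.06. Pcx ran from 73.6 to 113 CPM in controls (median 91.0), overlapping the exercised mice, with a log2 fold change of -0.25 ± 0.12. Slc16a3 differed by 0.43 ± 0.23 (adjusted p = 0.483, edgeR), and by 0.60 with the GC correction (adjusted p = 0.549). Each group serves in 2 of the 3 comparisons, so their values are not independent. Pdk3, for example, had log2 fold changes of 0.21 ± 0.09 against CSDS and 0.15 ± 0.09 against control from the same exercised mice. Tpi1 and Eno2 had -0.13 ± 0.08 and -0.15 ± 0.10 against control.

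The phosphofructokinase step is the main control point of glycolysis. The main edgeR fit found none of its genes at an unadjusted p under 0.05 in any comparison. In exercised against CSDS mice, voom with quality weights called Pfkl and Pfkm lower. Their voom log2 fold changes were -0.43 (adjusted p = 0.00739) and -0.16 (adjusted p = 0.0236). With the GC correction added, voom called neither. Pfkl measured 263 ± 75.5 CPM in exercised and 331 ± 50.9 CPM in CSDS mice. Its edgeR log2 fold change there, -0.33, was the lowest of all members. Pfkfb3, the enzyme that makes the phosphofructokinase activator fructose 2,6-bisphosphate, lay at 40.5, 42.8 and 50.6 CPM in controls, 36.2, 44.9 and 49.3 CPM in CSDS mice and 35.5, 41.1 and 65.3 CPM in exercised mice. Its highest value was again in exercise replicate 4. Pfkp and Pfkm, the platelet and muscle forms, measured 223 ± 20.2 and 464 ± 40.4 CPM in controls and 240 ± 9.53 and 431 ± 28.6 CPM in exercised mice. By pathway step, the median log2 fold change in CSDS against control lay between -0.09 for the kinases and 0.12 for glucose uptake and the first steps, and in exercised against CSDS mice between -0.14 for aldolase to pyruvate kinase and 0.08 for the lactate, pyruvate entry and citric acid cycle steps. After the GC correction the median in exercised against CSDS mice was 0.00 for aldolase to pyruvate kinase and 0.00 for pyruvate entry. It was 0.02 for the citric acid cycle step and 0.17 for the lactate step.

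Genes of neighbouring pathways were counted as well. Lists of other glycolytic enzymes (15 tested), transporters of lactate, pyruvate and glucose (14), other pyruvate dehydrogenase complex genes (7), other citric acid cycle genes (15), anaplerosis, malate shuttle and gluconeogenesis genes (17), glycogen and pentose phosphate genes (17) and regulators of hypoxia and energy state (29) held no called gene in any comparison. The transport list leaned lowest, with 13 of 14 negative in exercised mice against control and a median of -0.22. Slc2a1 (GLUT1), the glucose transporter of the blood-brain barrier, measured 131 ± 18.2 CPM in exercised mice and 154 ± 22.8 CPM in controls. Bsg, the chaperone of the lactate transporters, measured 442 ± 44.6 against 518 ± 53.3 CPM. Their groups overlapped, and their log2 fold changes were -0.24 ± 0.11 and -0.23 ± 0.11, or -0.18 and -0.12 with the GC correction. Slc2a1 is also an endothelial marker; 9 of the 10 endothelial markers were negative in this comparison (median -0.19), with summed levels of 405 to 546 CPM in exercised mice and 458 to 655 CPM in controls. Choroid plexus markers were negative for 10 of 10 in this comparison (median -0.66) and summed to 180 to 8498 CPM in exercised mice and 314 to 7356 CPM in controls. In the 7 libraries where they summed to at most 383 CPM (1 control, 3 CSDS and 3 exercised mice) the transport list averaged 3.38 to 3.65 log2 CPM per gene, and in the other 11 it averaged 3.92 to 4.42. Of its genes, Slc16a8 ranged from 0.408 to 8.73 CPM and Slc2a12 from 2.45 to 46.4 CPM among controls alone. The part of endothelial and choroid plexus cells in the transporters' values was not tested.

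Pdp1, the phosphatase that reactivates pyruvate dehydrogenase and so opposes the kinases, differed widely between libraries. It measured 89.8, 206 and 124 CPM in control replicates 1, 2 and 3 and 139 and 170 CPM in exercise replicates 3 and 6, and at most 56.4 CPM in every other library. These 5 libraries are the ones high in thalamic or neocortical markers. Its log2 fold change was -1.0 ± 0.39 in CSDS against control (unadjusted p = 0.0192, adjusted p = 0.993, edgeR) and 0.84 ± 0.39 in exercised against CSDS mice (adjusted p = 0.311, edgeR). Leaving out those 5 libraries gave -0.06 and 0.06. Lipt2, an enzyme of the route that makes the lipoyl group of the complex, lay between 3.54 and 4.64 CPM in CSDS mice and between 2.75 and 3.48 CPM in controls, without overlap. The log2 fold change was 0.29 ± 0.11 (adjusted p = 0.993, edgeR).

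In exercised against CSDS mice, Pck2, the mitochondrial phosphoenolpyruvate carboxykinase, measured 25.6 ± 2.57 against 34.8 ± 5.98 CPM (log2 fold change -0.44 ± 0.14, adjusted p = 0.206, edgeR), and -0.36 with the GC correction. Pgls and Tkt, enzymes of the pentose phosphate pathway, measured 13.8 ± 1.11 against 16.5 ± 0.820 CPM and 142 ± 17.4 against 169 ± 18.3 CPM, and Pgls did not overlap between the groups. The log2 fold change of Pgls went from -0.26 to 0.21 with the GC correction, while that of Tkt went from -0.25 to -0.16. Of the regulators of hypoxia and energy state, Klf15, a metabolic transcription factor, had the smallest p-value (6.90e-05, adjusted p = 0.143, edgeR). Its highest level among exercised mice (20.2 CPM) lay below its lowest among CSDS mice (21.7 CPM), with medians of 16.5 and 24.9 CPM, a log2 fold change of -0.59 ± 0.12 and of -0.46 with the GC correction. Hif1a, the oxygen-regulated subunit of hypoxia-inducible factor, measured 76.5 ± 12.8 against 63.2 ± 7.20 CPM, and its log2 fold change went from 0.28 to 0.03. Egln2, an oxygen sensor that marks that subunit for decay, went from -0.39 to 0.00, and Prkaa1, a catalytic subunit of the energy sensor AMPK, from 0.34 to 0.07.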

How the data were processed

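Poly(A) RNA of hippocampus from 18 mice was sequenced with a stranded kit, per the labels' protocols. The authors deposited estimated counts per gene, made from aligned reads with fastp, HISAT2, RSEM and GRCm38/mm10, as named in the submitters' processing notes. The sources used here do not state versions, annotation release or strand setting. Of the non-zero deposited counts, 22.7% were not whole, and all were rounded. Genes passed edgeR's filterByExpr (minimum count 10, minimum total 15). Counts were scaled by TMM and tested with edgeR's quasi-likelihood test over all 18 libraries in 1 fit, with Benjamini-Hochberg adjustment over 16738 genes and calls at an adjusted p under 0.05. The scripts were tested on simulated data.

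Levels are CPM on TMM-scaled library sizes, and log2 CPM has a prior count of 2. Transcript length and GC content are medians over protein-coding transcripts of GENCODE M21 (GRCm38), and 98.1% of tested genes had a GC value. The GC correction removed each library's lowess trend (span 0.3) on GC content as an offset. The trend was that of log2 CPM minus each gene's mean over the libraries fitted. Tools were R 4.3.3, edgeR 4.0.16, limma 3.58.1 and DESeq2 1.42.0. Alternatives covered the test, scaling, filter, samples, GC content and single libraries left out; voom without weights, voom with the GC correction and the fit without 5 libraries were added after seeing the data.

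The 37 genes and all lists were chosen with earlier results of these data known. Per-mouse values or ranges are given for the 8 members of smallest p in each comparison and for Gapdh, Pkm, Ldha, Ldhb, Pdk1, Pdk2, Pdk3, Pdk4, Pfkfb3 and Cs, and outside the members for up to 4 genes of smallest p per list.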

Additional observations from a re-analysis of the deposited data

Results flagged for a closer look

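In 8 of the 111 groups of 6 mice examined (37 genes in 3 groups), 1 mouse lay far from the other 5 by Dixon's criterion, which chance alone meets in about 1 group in 20. Exercise replicate 4 was the mouse in 4 of them: Pfkfb3 stood at 65.3 CPM (others 35.5 to 43.1), Eno2 at 1035 CPM (others 688 to 790), Pgk1 at 461 CPM (others 518 to 537) and Pdhb at 102 CPM (others 127 to 137). This library had a GC slope of 0.20, while the other exercised mice had slopes of -0.12 to -0.45. CSDS replicate 4 stood at 124 CPM for Dld (others 78.3 to 94.9) and at 94.4 CPM for Pdk2 (others 126 to 139), with a GC slope of -0.16, the lowest of its group. Slc2a3 was at 120 CPM in exercise replicate 6 (others 151 to 169), and Mdh2 at 251 CPM in control replicate 6 (others 289 to 310). The part of the slope in these values was not tested.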

How the results depend on the processing

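Calls of the 37 genes stayed at 0 in every comparison and alternative run except in exercised against CSDS mice, with 1 (Eno2) without exercise replicate 4 and 17 under voom with quality weights; leaving out single libraries otherwise gave 0. Over all genes, exercised against CSDS mice gave 0 calls, but 2 with no filter, 1 with only the groups compared, with the GC correction or with voom without weights, 156 with DESeq2, 5567 with voom and quality weights and 185 with these and the GC correction, and 0 to 625 with single libraries left out (43 without CSDS replicate 5, 625 without exercise replicate 4). CSDS against control gave 1 call with DESeq2. Exercised against control mice gave 3 calls, but 0 with no filter, the 1 CPM filter, only the groups compared, the replicate block, the GC correction (also with the block or without control replicate 2), voom without weights or the 5 libraries left out. It gave 1 with the GC correction without exercise replicate 4, 109 with DESeq2, 183 with voom and quality weights, 5 with these and the GC correction, and 0 to 13 with single libraries left out (13 without exercise replicate 4). The members' median log2 fold change went to 0.02 (CSDS against control) and 0.06 (exercised against control) with the 5 libraries left out, and to -0.07 to -0.01 in the latter with single libraries left out. Direction turned without the 5 libraries for Hk1 (-0.01), Ldhb (0.02), Mdh1 (0.07) and Fh1 (0.04) in CSDS against control, and for Mdh2 (0.00) in exercised against CSDS mice under weighted voom with the GC correction. Of 3663 member values over 33 alternatives, 314 changed sign, 153 of them among the 555 with the GC correction. The cause was not tested.

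Same-numbered mice of different groups did not deviate together (r of -0.47 to 0.25 over 18 pairs, 1 over 0.1, and 0 of 18 libraries correlated best with their own number). The mice were therefore not treated as pairs, though these correlations could miss a weak shared effect. With the replicate block 0 members were called in each comparison.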
